A study of Gallus gallus with 6 samples.

Results

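The 4 myogenic regulatory factors MYF5, MYF6, MYOD1 and MYOG were followed in RNA-seq libraries of muscle cells cultured from chicken embryos. They were taken by name, as the Ensembl rows carrying these 4 symbols in all tables, and are 4 of 24881 Ensembl genes listed. All 4 passed the filter on low levels that left 12808 tested genes. The myotubes, the fused multinucleated cells of the muscle lineage, were obtained by moving primary myoblasts to differentiation medium with 2% horse serum. The myoblasts, their proliferating precursors, were kept in growth medium with 15% FBS (fetal bovine serum). Both were primary Gallus gallus cells at passage 1 in RPMI-1640 with penicillin and streptomycin, and the labels name no strain, genetic change or other treatment. Each group had 3 libraries, and p-values describe only the spread among these samples. That spread may be technical, since no label says that the cultures or embryos were separate. How long the cells stayed in differentiation medium is not stated in the sources used here.

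The myogenic regulatory factors are basic helix-loop-helix proteins that bind E-box DNA as dimers with the ubiquitous E proteins and switch on skeletal muscle genes. MYF5 and MYOD1 are known as the factors that commit embryonic cells to the muscle lineage and are present in proliferating myoblasts. MYOG, myogenin, is required for terminal differentiation, and MYF6, also called MRF4, is known in the mouse both as an early determination gene and as a factor of mature fibres. ID proteins bind E proteins without binding DNA and so withhold them from the myogenic factors, and MEF2 proteins bind DNA beside them at muscle genes.

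The libraries held between 21893152 and 23519295 counted reads in myotubes and between 16052542 and 20981337 in myoblasts. The 4 genes together took 0.0567 to 0.0658% of Ensembl counts in myotubes and 0.112 to 0.119% in myoblasts. Each gene had at least 224 reads in every library. Positions are given as the tables list them, in a genome build that is not stated there. The labelled cell type was checked against muscle genes, of which DES and CDH15 are shown here. Others chosen for this check differed more, as CHRNA1 rose and PAX7 fell 3.18-fold in myotubes. MYMK, ACTC1, TNNT3 and MYL1, also chosen for it, are not reported here. DES, which encodes the muscle intermediate filament desmin, stood at 208 ± 13.3 CPM in myotubes and 236 ± 6.59 CPM in myoblasts (read counts per unit of library size, scaled between libraries; SD, n = 3 each). Its call as lower (edgeR adjusted p = 0.02) turned to higher after quantile normalization. CDH15, the muscle cadherin, stood at 321 ± 35.9 CPM in myotubes and 351 ± 38.2 CPM in myoblasts, and was not called (edgeR adjusted p = 0.26).

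All 4 factors passed the test at an adjusted p under 0.05, as did 72.5% of all tested genes. The chromosome 1 neighbours MYF5 and MYF6 fell most in myotubes, MYOD1 fell by a smaller factor, and MYOG rose. MYF5 (ENSGALG00000028091, positions 40002758 to 40003972, plus strand) had 623, 830 and 512 reads in the myotube libraries, against 4742, 5453 and 6789 in the myoblast libraries. On the FPKM scale, read counts per unit of listed gene length and of library size, these were 34.1, 46.7 and 30.1 in myotubes and 380, 421 and 416 in myoblasts. Even the lowest myoblast library was 8.15-fold above the highest myotube library. The log2 fold change, myotube over myoblast, was -3.52 ± 0.14 (SE), an 11.5-fold fall (edgeR quasi-likelihood test, adjusted p = 1.18e-08), and 0.679% of all tested genes fell as far or farther.

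MYF6 (ENSGALG00000010936, positions 39998073 to 39999566, plus strand) had 353, 296 and 224 reads in myotubes and 1830, 2049 and 2523 in myoblasts. That is 12.9, 11.1 and 8.81 FPKM in myotubes and 98.1, 106 and 103 FPKM in myoblasts, again without overlap. It fell 9.75-fold (log2 fold change -3.29 ± 0.13, edgeR adjusted p = 9.82e-09). In both groups MYF6 was the least abundant of the 4 factors per length.

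MYOD1 (ENSGALG00000006216, chromosome 5, positions 12184436 to 12187655, plus strand) had 5429, 4771 and 4353 reads in myotubes and 7817, 7837 and 10572 in myoblasts. Per length it stood at 158, 142 and 136 FPKM in myotubes and 332, 321 and 344 FPKM in myoblasts. It fell 2.39-fold (log2 fold change -1.26 ± 0.07, edgeR adjusted p = 1.6e-07), and 8.3% of tested genes fell as far. A listed gene without a symbol overlaps MYOD1 on the opposite strand and had 0 reads in all 6 libraries.

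MYOG (ENSGALG00000000172, chromosome 26, positions 968610 to 972124, minus strand) had 8335, 8910 and 7119 reads in myotubes and 3188, 3630 and 4498 in myoblasts. The levels were 298, 328 and 274 FPKM in myotubes and 167, 183 and 180 FPKM in myoblasts, so the lowest myotube library lay 1.5-fold above the highest myoblast library. MYOG rose 1.62-fold (log2 fold change 0.70 ± 0.07, edgeR adjusted p = 1.44e-05). Of all tested genes, 21.7% rose as far or farther. The size of the rise depended on scaling, with a log2 fold change of 1.08 after quantile normalization. In the proliferating cells MYOG was already well above the level of most genes.

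Calls were frequent in this comparison, with 36.7% of tested genes called higher and 35.7% lower in myotubes. At least 2-fold calls were made for 14.1% of tested genes higher and 11.1% lower, MYF5, MYF6 and MYOD1 among the lower ones. The groups did not overlap in 76.1% of tested genes (38.6% higher and 37.5% lower in myotubes), as in all 4 factors. Scaled to TPM, in which each library sums to the same total per length, 62.7% of calls were higher, against 50.7% here, and the median of all tested genes was 0.19 on the log2 scale. On that scale MYOG was at 0.88 and MYOD1 at -1.07. In bulk RNA, fewer cells expressing a gene and less RNA per cell cannot be told apart.

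**Figure D1:**
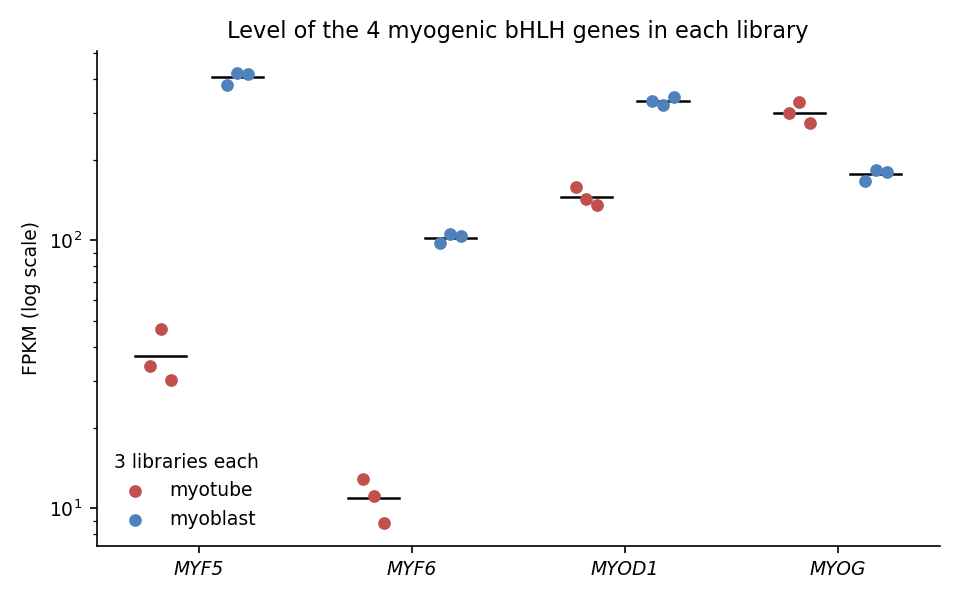
FPKM on a log scale for MYF5, MYF6, MYOD1 and MYOG, with 1 point per library, myotubes in red and myoblasts in blue (n = 3 each), and a bar at each mean. The myotube points lie below the myoblast points for MYF5, MYF6 and MYOD1 and above them for MYOG.

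The order of the factors by level differed between the groups. In myotubes MYOG led with 299.9 ± 27.0 FPKM, followed by MYOD1 with 145 ± 11.2, MYF5 with 37.0 ± 8.65 and MYF6 with 10.95 ± 2.06 FPKM (SD, n = 3). In myoblasts MYF5 led with 406 ± 22.2 FPKM, followed by MYOD1 with 332 ± 11.7, MYOG with 177 ± 8.53 and MYF6 with 102 ± 3.89 FPKM. No 2 neighbours in either order had overlapping library values. The closest pair was MYF5 and MYOD1 in myoblasts, with a ratio of 1.22 between their means, and that lead rests on the listed lengths, 777 bases for MYF5 and 1466 for MYOD1, since MYOD1 had more reads in every myoblast library. Among all tested genes, 2.17% stood above MYOG in myotubes and 5.04% in myoblasts. MYF5 was exceeded by 23.2% of tested genes in myotubes and by 2.08% in myoblasts, and MYF6 by 57.8% in myotubes and 9.12% in myoblasts.

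Ratios between the factors within a library do not depend on how libraries are scaled. The ratio of MYOG to MYOD1 in FPKM was 1.89, 2.3 and 2.02 in myotubes and 0.503, 0.571 and 0.525 in myoblasts. The ratio of MYOG to MYF5 was 8.75, 7.02 and 9.09 in myotubes and 0.44, 0.435 and 0.433 in myoblasts. These amount to shifts of 3.88-fold and 18.9-fold toward MYOG, or 1.96 ± 0.10 and 4.24 ± 0.12 on the log2 scale (SE). MYOD1 also gained on MYF5, at 4.62, 3.05 and 4.51 in myotubes against 0.874, 0.762 and 0.826 in myoblasts, a 4.87-fold shift. Of the 6 pairs of factors, 5 separated the groups without overlap, each with an exact permutation p of 0.1, two-sided, which is the smallest that 3 libraries against 3 allow (0.12 after Benjamini-Hochberg adjustment over the 6 pairs).

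The exception was the pair of chromosomal neighbours. The ratio of MYF6 to MYF5 was 0.379, 0.238 and 0.293 in myotubes and 0.258, 0.251 and 0.249 in myoblasts. The difference was 0.24 ± 0.19 on the log2 scale (SE; exact permutation p = 0.4, two-sided), so with all libraries a difference between the falls of MYF5 and MYF6 was not resolved. The overlap rested on myotube replicate 2, without which the difference was 0.40 and the groups separated (exact permutation p = 0.1, the smallest possible). Without myotube replicate 1 it was 0.06. Among myotube libraries this ratio varied more than in myoblasts, with an SD of 0.33 on the log2 scale against 0.03.

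As a share of the summed FPKM of the 4 factors, MYOG made up 60.8% ± 1.40 in myotubes and 17.4% ± 0.354 in myoblasts (SD, n = 3 each). MYF5 made up 7.45% ± 1.21 in myotubes and 39.9% ± 0.978 in myoblasts, and MYF6 2.21% ± 0.316 in myotubes and 10.1% ± 0.178 in myoblasts. For these 3 genes the groups did not overlap (exact permutation p = 0.1, two-sided, adjusted over 4 shares 0.13). The share of MYOD1 overlapped, at 31.3, 27.0 and 30.3% in myotubes and 34.0, 31.1 and 32.9% in myoblasts (exact permutation p = 0.2). This overlap rested on single choices, since the groups separated without myotube replicate 1 (difference -4.07 percentage points, exact permutation p = 0.1) and with raw counts in place of FPKM (-8.15 points, exact permutation p = 0.1). Without myotube replicate 2 the difference was -1.88 points, against -3.16 with all libraries. The sum itself was 503, 528 and 448 FPKM in myotubes and 978, 1029.8 and 1044 FPKM in myoblasts, 2.06-fold lower in myotubes. The shares sum to 100% in each library and are not independent of each other.

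**Figure D2:**
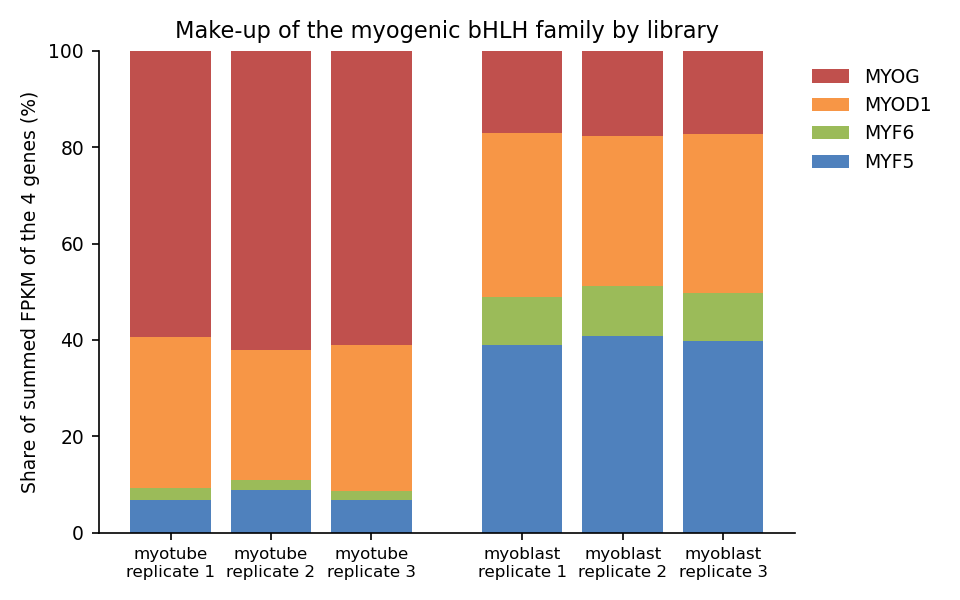
Share of each factor in the summed FPKM of MYF5, MYF6, MYOD1 and MYOG, in percent, with 1 bar per library, the 3 myotube libraries left and the 3 myoblast libraries right. MYOG fills 60.8% of the myotube bars on average and 17.4% of the myoblast bars, while the MYOD1 band keeps a similar width.

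Among myotube libraries the spread was larger for MYF5 and MYF6 than for MYOD1 and MYOG. In CPM, the coefficient of variation of MYF5 was 22.9% among myotube libraries and 6.29% among myoblast libraries, against 3.91% and 1.34% that counting error alone would give in those groups. For MYF6 it was 19.8% in myotubes and 4.5% in myoblasts. For MYOD1 it was 8.84% in myotubes and 4.32% in myoblasts, and for MYOG 8.85% in myotubes and 5.61% in myoblasts. MYF5 was highest in myotube replicate 2, at 36.0 CPM against 26.8 CPM in replicate 1 and 23.2 CPM in replicate 3, whereas MYF6 was highest in replicate 1, at 15.2 CPM. PAX7, the transcription factor of muscle stem cells, was also highest in myotube replicate 2, at 38.8 CPM against 29.0 and 31.0 CPM in replicates 1 and 3, and 112, 99.5 and 103 CPM in the myoblast libraries. PAX7 was named here after its values were seen, and other genes lower in myotubes differed in this. MYOD1 was highest in myotube replicate 1, at 234 CPM against 207 and 198 CPM in replicates 2 and 3. ID1, ID3 and ID4 were also highest in replicate 1, and ID2 in replicate 2 (38.5, 40.7 and 38.7 CPM in replicates 1 to 3). The summed level of 30 cell division genes was 695, 794 and 761 CPM in the myotube libraries and 4149, 4165 and 4204 CPM in the myoblast libraries. The part of remaining precursor cells in the MYF5 level of myotubes was not tested.

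The genes listed beside the factors were examined next, within 250 kb. The listed end of MYF6 and start of MYF5 are 3191 bases apart. On the other side of MYF6, 17.1 kb away, lies PTPRQ, which encodes a receptor-type phosphatase, and it had 299, 353 and 247 reads in myotubes and 1092, 963 and 1221 in myoblasts. PTPRQ fell 4.87-fold (log2 fold change -2.28 ± 0.11, edgeR adjusted p = 6.41e-08). LIN7A, 25.5 kb past MYF5, had 140 reads in all over the myotube libraries and 179 over the myoblast libraries and fell 1.71-fold (edgeR adjusted p = 0.0086). Nearer to MYF5, a gene without a symbol held 5 reads over the myotube libraries and 42 over the myoblast libraries, below the filter. RPS16, a ribosomal protein gene 245 kb before MYF6, was not called, at 809.95 ± 41.6 CPM in myotubes and 832 ± 39.6 CPM in myoblasts.

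FTD, listed 4.78 kb before MYOD1 and given as an older name of FTL in RefSeq, fell 2.25-fold, at 19.3 ± 3.05 CPM in myotubes and 43.3 ± 1.38 CPM in myoblasts (edgeR adjusted p = 5.43e-06). On the other side, 16.1 kb away, KCNC1, a potassium channel gene, had 10 reads over the myotube and 22 over the myoblast libraries. ADORA1, the adenosine A1 receptor gene 9.7 kb from MYOG, had 823, 776 and 771 reads in myotubes and 109, 147 and 181 in myoblasts. It rose 4.1-fold (log2 fold change 2.03 ± 0.11, edgeR adjusted p = 1.08e-07), more than MYOG itself. PPFIA4, 1.63 kb from MYOG on its other side, lay below the filter with 68 reads over the myotube and 27 over the myoblast libraries. The nearest tested gene on that side, TMEM183A, 43.5 kb away, fell 1.56-fold (edgeR adjusted p = 5.87e-05). On the far side of MYOD1 the nearest tested gene, SERGEF, lay 125 kb away and was not called. Tested neighbours, at unlike distances, thus moved in the direction of the factor on some sides and not on others.

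Around MYOG, 29 genes were tested within 250 kb, of which 9 were called higher and 13 lower, at 31 and 44.8%, against 36.7 and 35.7% of all tested genes. At least 2-fold rises there were those of ADORA1, TMEM9, TNNI1, LMOD1 and C1orf106, and at least 2-fold falls were those of ADIPOR1, UBE2T, DRAM2 and a gene without a symbol. TNNI1, the slow troponin I gene, is itself a muscle gene and stood at 575 ± 49.0 CPM in myotubes and 219.6 ± 19.1 CPM in myoblasts. MYBPH, a myosin-binding protein gene 29.3 kb from MYOG, was not called, at 36.2 ± 2.17 CPM in myotubes and 35.9 ± 0.588 CPM in myoblasts. By their listed strands, PTPRQ and FTD lie ahead of MYF6 and MYOD1 on the same strand. ADORA1 lies ahead of the start of MYOG on the opposite strand. How reads were assigned to strands is not stated in the sources used here. Transcription running on from a gene into the next was not tested, as from MYF6 into MYF5, PTPRQ into MYF6 and FTD into MYOD1. MYF5 stood at 28.7 CPM in myotubes and 329 CPM in myoblasts, against 12.7 and 124 CPM for MYF6. PTPRQ stood at 13.1 CPM in myotubes and 64.0 CPM in myoblasts. MYOD1 stood at 213 CPM in myotubes and 509 CPM in myoblasts, against 19.3 and 43.3 CPM for FTD.

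**Figure D3:**
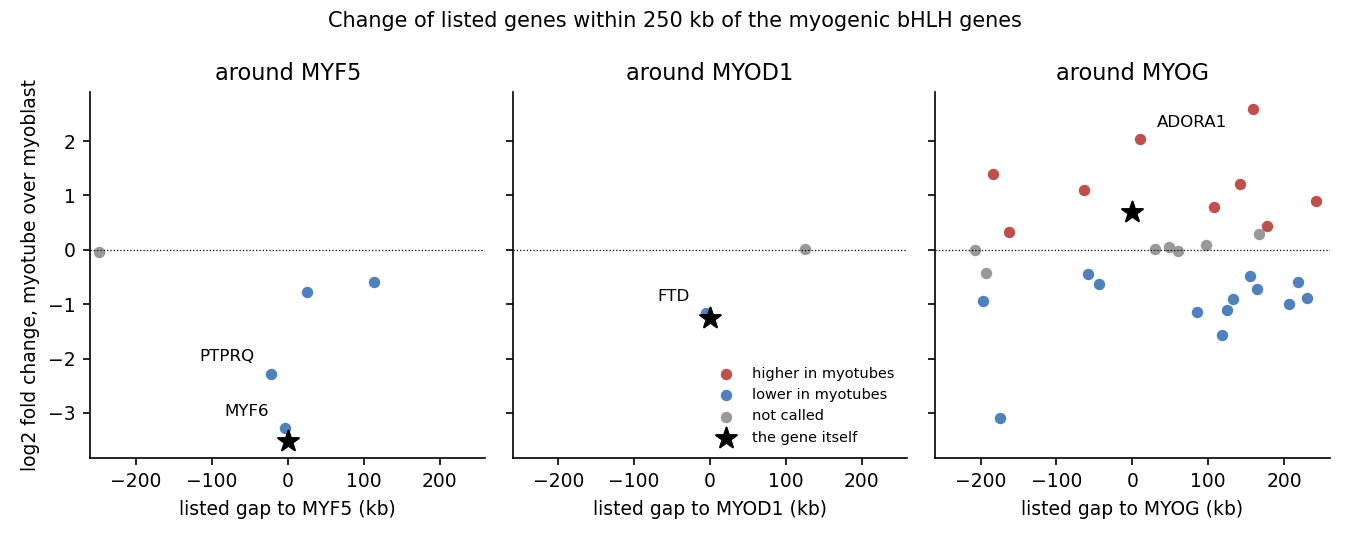
Log2 fold change (myotube over myoblast, edgeR) of tested genes listed within 250 kb of MYF5, MYOD1 and MYOG, against their listed gap to that gene in kb, with negative values toward lower positions, red for called higher, blue for called lower and grey for not called. Stars mark the factor itself. Of the genes named in the panels, MYF6 and PTPRQ lie below 0 with MYF5, FTD below 0 with MYOD1, and ADORA1 above 0 with MYOG. Other points do not follow the factor: of 29 tested genes around MYOG, 9 were called higher and 13 lower. SERGEF, 125 kb from MYOD1, was not called.

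All 4 ID inhibitors fell with the early factors, in a comparison where 35.7% of all tested genes were called lower. ID1 fell 11.2-fold, at 28.3 ± 4.25 CPM in myotubes and 317 ± 36.8 CPM in myoblasts, close to the change of MYF5. ID4 fell 7.16-fold, ID2 6.32-fold and ID3 2.02-fold (edgeR adjusted p at most 2.7e-06 for each of the 4). ID3, the least changed, was the most abundant ID gene in myotubes per length, with 259.5 ± 31.0 FPKM, and ID4 in myoblasts, with 968 ± 62.0 FPKM. The summed FPKM of the 4 ID genes was 458 ± 46.1 in myotubes and 1949 ± 101 in myoblasts. Relative to the summed FPKM of the 4 myogenic factors it was 0.969, 0.913 and 0.903 in myotubes and 1.87, 1.95 and 1.92 in myoblasts, with no overlap between the groups.

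The 2 tested E proteins moved in opposite directions and by smaller factors. TCF3, which encodes E12 and E47, rose 1.57-fold, at 254 ± 12.2 CPM in myotubes and 162 ± 10.3 CPM in myoblasts (edgeR adjusted p = 7.7e-06). TCF12, which encodes HEB, fell 1.21-fold, at 821 ± 28.3 CPM in myotubes and 994 ± 56.3 CPM in myoblasts (edgeR adjusted p = 0.0019), a call that was lost on the TPM scale (log2 fold change -0.09) and turned to 0.07 after quantile normalization. No row was matched to TCF4 by name, so it is missing from the sums that follow. The summed FPKM of TCF3 and TCF12 was 269 ± 6.59 in myotubes and 252 ± 17.4 in myoblasts. The groups overlapped in it, at 262 to 273 in myotubes and 235 to 270 in myoblasts. In CPM the sum was 1059 to 1097 in myotubes and 1094 to 1227 in myoblasts. Relative to the summed factors, themselves 2.06-fold lower in myotubes, the FPKM sum was 0.52, 0.518 and 0.608 in myotubes. In myoblasts it was 0.276, 0.243 and 0.225. The 3 tested MEF2 genes rose, MEF2C 5.22-fold, MEF2D 1.71-fold and MEF2A 1.53-fold, against 36.7% of all tested genes called higher. MEF2C, a gene that myogenic factors are known to activate, had 1763, 1775 and 1874 reads in myotubes and 268, 235 and 272 in myoblasts.

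**Figure D4:**
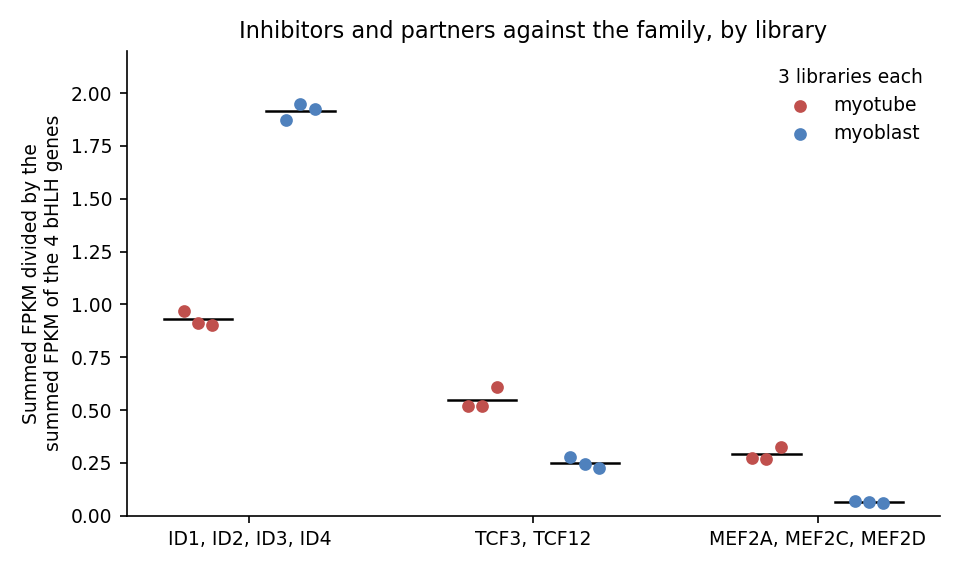
Summed FPKM of the ID inhibitors, of the E proteins TCF3 and TCF12 and of the MEF2 genes, each divided by the summed FPKM of MYF5, MYF6, MYOD1 and MYOG in the same library (no unit), with myotubes in red and myoblasts in blue (n = 3 each) and bars at the means. The ID ratio is lower in every myotube library, and the E protein and MEF2 ratios are higher. The divisor was 2.06-fold lower in myotubes, and the E protein sum itself overlapped between the groups.

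Of 10 other tested repressors of myogenic factors, 5 rose (50%), 4 fell (40%) and 1, HEY2, was not called, against 36.7% higher and 35.7% lower of all tested genes. Their median log2 fold change was 0.35, against 0.01 over all tested genes. BHLHE40, a repressor of E-box genes, fell 3.47-fold, at 209 ± 12.4 CPM in myotubes and 726 ± 20.2 CPM in myoblasts, and the Notch target HEYL fell 2.65-fold. SIM2 rose 6.57-fold to 12.8 ± 1.43 CPM in myotubes, and HDAC4, a histone deacetylase that binds MEF2, rose 2.23-fold. TWIST1 and MSC, both bHLH repressors, fell 1.77-fold and 1.42-fold, and the call of MSC was lost after quantile normalization (adjusted p = 0.051, limma).

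Factors that act upstream of the 4 genes included 27 tested, of which 13 rose (48.1%), 13 fell (48.1%) and 1, FOXO1, was not called. Over all tested genes the directions were also nearly balanced, with 36.7% higher and 35.7% lower. PAX3, which acts above MYF5 and MYOD1 in muscle progenitors, had 8 reads over the myotube and 261 over the myoblast libraries and fell 41-fold. MEOX1 fell 4.29-fold, while GLI3 rose 3.53-fold and MSX2, a homeobox gene, rose 3.1-fold. SIX4, another homeobox gene, rose 2.81-fold.

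Coactivators and chromatin partners rose more often than they fell. Of 20 tested, 15 rose, 3 fell and 2, HDAC1 and HDAC2, were not called, with a median log2 fold change of 0.79. MEIS2, a homeobox gene, rose 8.02-fold, at 57.6 ± 8.74 CPM in myotubes and 7.2 ± 0.562 CPM in myoblasts. SUV39H1, a histone methyltransferase that restrains MYOD1 in mouse myoblasts, fell 2.88-fold, and SMARCB1, a chromatin remodelling subunit, fell 1.52-fold. Of this list 75% rose and 15% fell, against 36.7% higher and 35.7% lower of all tested genes.

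Muscle genes known as targets of MYOD1 and MYOG were mostly higher. Of 77 listed, 54 matched a row and 52 were tested. Of these, 37 rose (71.2%), 8 fell (15.4%) and 7 were not called, against 36.7% higher and 35.7% lower of all tested genes. Their median log2 fold change was 0.80. MYBPC1, a myosin-binding protein of slow muscle, had 488, 589 and 695 reads in myotubes and 9, 7 and 7 in myoblasts. MYOM2 of the sarcomere M-band rose 16.7-fold, with 110.6 ± 14.8 CPM in myotubes and 6.67 ± 1.24 CPM in myoblasts. CHRNA1, the acetylcholine receptor subunit gene whose promoter is a classic E-box target, rose 1.71-fold, at 257 ± 5.16 CPM in myotubes and 150.2 ± 1.94 CPM in myoblasts. CSRP3, a Z-disc protein gene, fell 4.47-fold and MYL4, an embryonic myosin light chain gene, fell 4.26-fold. RB1, the retinoblastoma gene, fell 1.65-fold, while CDKN1A, the cell cycle inhibitor p21, rose 2.76-fold. All 30 tested cell division genes fell (median -2.39 on the log2 scale), against 35.7% of all tested genes. RRM2, which serves nucleotide supply in S phase, fell 13.4-fold, to 19.1 ± 1.47 CPM in myotubes, against 256 ± 2.58 CPM in myoblasts.

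**Figure D5:**
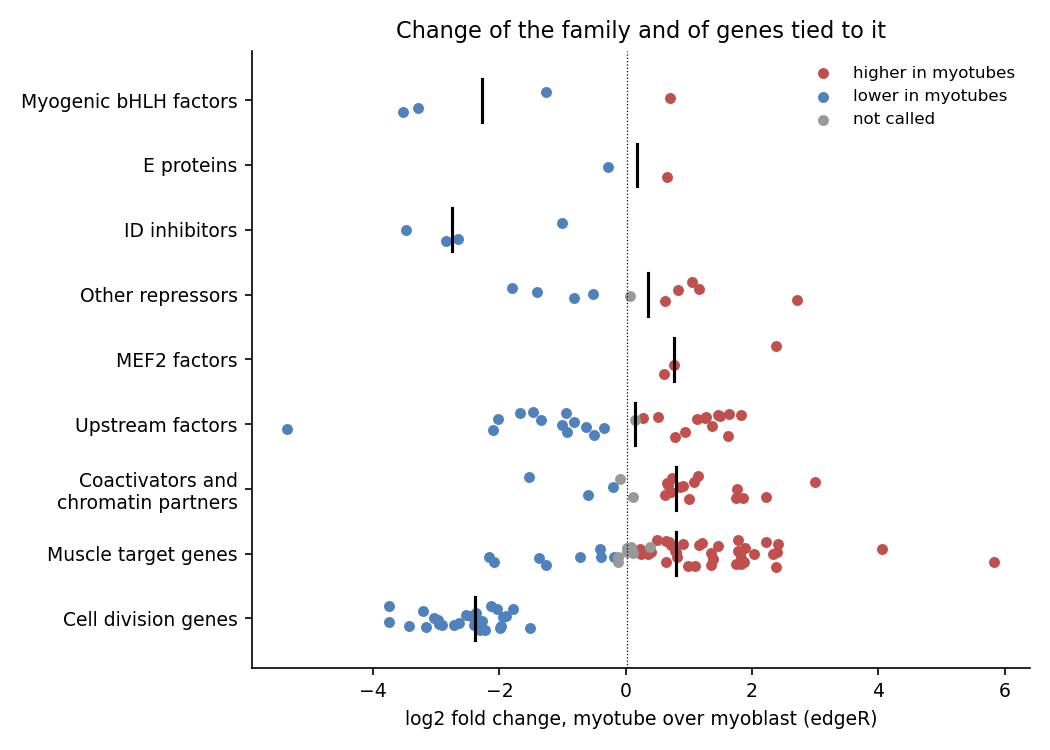
Log2 fold change (myotube over myoblast, edgeR) of each tested gene in the family and in 8 lists of genes tied to it, with 1 point per gene, red for called higher, blue for called lower and grey for not called, a bar at each list's median and a dotted line at the median of all tested genes. The ID inhibitors and cell division genes lie wholly below 0, and the MEF2 genes wholly above it.

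By profile, the genes nearest to each factor were found among 8697 other tested genes with a symbol, by Euclidean distance of centred log2 CPM over the 6 libraries. Nearest to MYF5 were TK1 (distance 0.35), a thymidine kinase of S phase, FAH (0.38), an enzyme of tyrosine breakdown, and ID1 (0.39). Nearest to MYF6 were MNX1 (0.13), ID1 (0.30) and LGALS3 (0.35), which encodes galectin-3. MNX1, a homeobox gene, was much less abundant, at 0.467 ± 0.0987 CPM in myotubes and 4.66 ± 0.14 CPM in myoblasts. Its log2 fold change had an SE of 0.24, so its small distance is uncertain. MYF5 ranked 22nd for MYF6, at a distance of 0.56. ACTB, TUBB and ATP6V0C were nearest to MYOD1 (0.09 to 0.12), and FRMD6, HIP1 and PACSIN3 to MYOG (0.08 to 0.13). These distances mostly reflect a like difference between the groups. With ID1 counted for both MYF5 and MYF6, only 1 of the 12 entries, MNX1, recurred when likeness was measured by Pearson's correlation.

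Markers of other cell types also differed between the groups, in a comparison where 36.7% of all tested genes were called higher and 35.7% lower. Of 14 tested fibroblast markers, 12 rose and 1 fell, with summed levels of 12578 to 14552 CPM in myotubes and 7137 to 7423 CPM in myoblasts. DPT, dermatopontin, rose 89.3-fold to 66.5 ± 2.92 CPM in myotubes, and POSTN, periostin, fell 5.54-fold. Of 10 blood cell and macrophage markers, 9 fell and none rose, at 410 to 457 CPM in myotubes and 1351 to 1423 CPM in myoblasts, and C1QB, a complement subunit of macrophages, fell 8.97-fold. Of 4 tested neural crest markers 3 fell, SOX10 furthest (121-fold), and ERBB3 rose 3.91-fold, with sums of 18.7 to 21.6 CPM in myotubes and 141 to 159.7 CPM in myoblasts, and endothelial markers, of which only TAL1 was tested and fell 3.43-fold, summed to 4.74 to 6.46 CPM in myotubes and 15.5 to 17.4 CPM in myoblasts. Smooth muscle and pericyte markers, some of which muscle cells also express, summed to 5338 to 6354 CPM in myotubes and 2795 to 2944 CPM in myoblasts, with 3 of 8 higher, ACTA2 furthest (6.51-fold), and 4 lower, CSPG4 furthest (3.8-fold). No matched marker of these 5 lists was at 0 in all 6 libraries. Their part in the changes of the 4 factors was not tested. Ratios between the factors in a library do not depend on the share of cells that express none of them. The share of myoblasts left in the myotube cultures, on which such ratios do depend, was not tested either. The listed positions of TCF12, PAX7, MEIS2, HEYL, HDAC1, DES and RB1 overlap those of other listed genes, so their counts are uncertain.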

How the data were processed

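Trizol was used for RNA extraction and Illumina protocols for the libraries, per the labels' protocols. The authors deposited 1 table per library with the read count and the FPKM of each gene, per the file headers. The myoblast headers use another prefix (PM) than the sample titles (GM), and each table was taken as that of the sample it was deposited under. HISAT and HTSeq were used, per the submitters' processing notes. Genome build, strand setting and handling of multiply mapped reads are not stated in the sources used here, and coordinates are those in the tables. For the 4 factors the deposited FPKM equals the count per listed length and total, within 1 base of length.

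Loci without an Ensembl identifier (1.66 to 2.12% of counts), and 2 rows of annotation text in each myotube table, were left out. The filter kept Ensembl genes whose FPKM averaged 1 or more over the 6 libraries. Their counts were compared in edgeR 4.0.16 under R 4.3.3, using TMM scaling and its two-sided quasi-likelihood test, with Benjamini-Hochberg adjustment over all 12808 genes and a threshold of 0.05. Standard errors were derived from the F statistic. CPM values use TMM-scaled totals of the tested genes. Ratios and shares were tested by exact permutation of libraries. The test was first run on simulated data. Alternatives are listed with their effect in the closing section.

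The 4 genes, the lists and the rules were chosen with earlier results of these data known. Of the 261 entries in 14 lists, 209 were found in the tables: 203 under the symbol itself, 1 under an alias and 5 through RefSeq synonyms (assembly GRCg7b, names only). Genes were named by rule: the 4 factors, the 3 nearest profiles of each, all members of lists with up to 6 tested, the 2 largest called rises and falls of longer lists (1 of each for markers), the nearest neighbours and neighbours changed at least 2-fold. Some genes that this rule names are not reported here. TWIST1, MSC, SIX4, FOXO1, HDAC1, HDAC2, HEY2, TMEM183A, SERGEF, CHRNA1, RB1, CDKN1A, MYBPH, RPS16, PAX7, DES and CDH15 were added after their values were seen. Depth sets a counting error of 0.973 to 6.68% for a factor in a single library, and the SD between libraries is given throughout.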

Additional observations from a re-analysis of the deposited data

How the results depend on the processing

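MYF5, MYF6, MYOD1 and MYOG kept their direction and stayed under the threshold in each of 19 alternatives. These were DESeq2 1.42.0, other scaling factors, limma 3.58.1 on log2(FPKM + 1), log2(FPKM + 0.1), the TPM scale and quantile-normalized values, other filters, robust edgeR, a replicate block, the loci without an Ensembl identifier and leaving out each library. The log2 fold change ranged from -3.72 to -3.24 for MYF5, from -3.44 to -3.04 for MYF6, from -1.34 to -0.88 for MYOD1 and from 0.64 to 1.08 for MYOG, whose highest adjusted p was 0.00017, without myoblast replicate 2. Quantile normalization gave the ends nearest to 0 for MYOD1 and farthest from 0 for MYOG. On the TPM scale the median of all tested genes was 0.19, and 5865 genes were called higher and 3492 lower, against 4706 and 4577 in edgeR. The number of genes called was between 7906 (adjusted p under 0.01) and 10561 (no filter), and between 8589 and 9097 with a library left out. With raw counts in place of FPKM the share of MYOD1 was 8.15 percentage points lower in myotubes, against 3.16 on the FPKM scale. The share difference ranged, on the FPKM scale, from -4.07 to -1.88 points, and the log2 ratio of MYF6 over MYF5 from 0.06 to 0.40 when single libraries were left out. Among neighbours of the factors 26 of 35 tested were called within 250 kb (74.3%), 8 of 12 within 100 kb (66.7%) and 54 of 73 within 500 kb (74%), near the 72.5% of all tested genes.

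Labels give both groups the replicate numbers 1 to 3, and whether these pair the libraries could not be settled. Deviations of same-numbered libraries correlated at -0.04, 0.10 and -0.15, and those of differently numbered libraries at -0.15 to 0.18. With 3 libraries per group, such correlations cannot exclude shared cultures or embryos. With the replicate block, 8784 genes were called, and MYOG had a log2 fold change of 0.70 (edgeR adjusted p = 0.00011). With the same block, the exact permutation p was 0.25 for each share and for every pair of factors but MYF6 over MYF5, where it was 0.5. Applied to the lists, the same alternatives (chosen after seeing the data) left the counts of ID, MEF2 and cell division genes as they were, and put the muscle targets between 37 and 42 higher and between 6 and 9 lower. Coactivators and chromatin partners were between 15 and 16 higher and between 2 and 3 lower. Upstream factors were between 12 and 14 higher and between 12 and 13 lower. The nearest profiles by Pearson's correlation shared 1 of 12 entries with those by distance. The lists hold only genes matched by name, and 3 libraries against 3 cannot give an exact p below 0.1.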
